A study of Mus musculus with 2 samples.

Results

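The type I interferon response genes are 34 named genes among the 31053 genes counted, and all 34 had at least 1 UMI (unique molecular identifier, 1 captured RNA molecule) in the cells kept. They were taken by name, as genes known to be induced by type I interferon, but with earlier results of these data known. They were followed as a sum and singly, across the immune lineages of the mouse cochlea, in cells of mice given a sham treatment and of mice 3, 7 and 14 days after noise exposure. Each condition is 1 pool of cochleae from 6 mice, digested with Accutase and sorted for living CD45+ cells. CD45 is the surface protein shared by leukocytes. The 4 pools were marked with hashtags 1 to 4 (sham, day 3, day 7, day 14) and loaded together in 1 droplet library. The labels call the control both sham treated and untreated, and the strain, sex and age of the mice are not given in the sources used here. With 1 pool per condition there is no replicate and no test. Intervals, all at 95%, cover the error of counting and nothing else, and every ratio divides by the same sham pool. The hashtag antibodies bind MHC class I and CD45, and MHC class I is itself raised by interferon.

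Type I interferons are secreted when a cell senses foreign or misplaced nucleic acid. They bind a receptor of the Ifnar1 and Ifnar2 chains on many cell types. Jak1 and Tyk2 then phosphorylate factors such as Stat2, which joins Irf9 in the complex ISGF3. ISGF3 binds interferon-stimulated response elements in promoters. The genes it switches on include direct antiviral effectors, such as the Ifit and Oas families, and also the sensors and factors of the pathway itself, so that a responding cell becomes more sensitive. Immune cells keep a low resting level of many of these genes. The members were grouped by role. The core inducible members are 15 genes taken as low at rest. They are Isg15, Ifit1, Ifit2, Ifit3, Oasl1, Oasl2, Oas1a, Oas2, Oas3, Rsad2, Usp18, Ifi44, Mx1, Cmpk2 and Rtp4. The regulators and sensors are 9 genes: Irf7, Irf9, Stat2, Dhx58, Ddx58, Ifih1, Zbp1, Ifi204 and Ifi203. The effectors with resting expression are 10 genes: Bst2, Isg20, Ifi47, Irgm1, Xaf1, Parp14, Parp9, Herc6, Trim30a and Slfn5. The group names do not order the single genes by their sham level. Over all sham cells the resting effectors Slfn5 and Xaf1 stood below the core member Isg15.

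All 34 genes are annotated as protein coding (GENCODE vM21 on GRCm38), and several lie in families of neighbouring copies. Chromosome 5 holds 5 of them (the Oas and Oasl genes), chromosome 11 holds 5, chromosome 16 holds 4 and chromosome 19 holds the 3 Ifit genes. Isg15 lies at chr4:156199424-156200818 on the minus strand, and Ifit3 at chr19:34583531-34588731 on the plus strand. Reads that fit more than 1 close copy were not examined. To show the sequence through which ISGF3 is known to act, promoter windows of RefSeq genes (GRCm38.p6, 250 bases before to 50 bases after the start) were searched on both strands for GAAA, then any 2 bases, then GAAA, with overlapping matches counted. A window was found for 25 of the 34 members, and 14 of these 25 (56.0%) held at least 1 match. Among all 27025 genes with a window the share was 3.99%. Among the members with a window, 6 of 11 core genes and 8 of 14 others held it. A match is a description of letters and not a bound site. The 170 bases before the start are printed for Isg15, Ifit3 and Rsad2, members of the core, and for Bst2, the member with most UMIs on day 3, with the matches in capitals. A match on the opposite strand reads TTTC, any 2 bases, TTTC.
Isg15 (chr4:156200819-156200988, minus strand): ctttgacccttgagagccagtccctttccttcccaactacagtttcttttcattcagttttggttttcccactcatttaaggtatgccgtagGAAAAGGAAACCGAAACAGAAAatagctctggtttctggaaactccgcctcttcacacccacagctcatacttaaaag
Ifit3 (chr19:34583359-34583528, plus strand): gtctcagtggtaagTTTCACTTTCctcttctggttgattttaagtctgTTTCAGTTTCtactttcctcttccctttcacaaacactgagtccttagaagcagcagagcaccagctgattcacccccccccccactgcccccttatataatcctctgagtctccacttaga
Rsad2 (chr12:26456453-26456622, minus strand): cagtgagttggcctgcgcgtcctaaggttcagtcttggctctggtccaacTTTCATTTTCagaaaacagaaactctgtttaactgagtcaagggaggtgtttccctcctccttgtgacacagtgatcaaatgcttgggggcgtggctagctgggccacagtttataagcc
Bst2 (chr8:71537473-71537642, minus strand): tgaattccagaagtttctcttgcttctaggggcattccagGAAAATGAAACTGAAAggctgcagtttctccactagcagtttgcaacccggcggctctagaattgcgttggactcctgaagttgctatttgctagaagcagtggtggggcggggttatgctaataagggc
Isg15 held 3 overlapping matches, Bst2 held 2 overlapping ones and Ifit3 held 2 apart from each other. Rsad2 held 1.

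After demultiplexing and filtering, 1285 cells with 14626863 UMIs remained: 341 sham, 551 day 3, 216 day 7 and 177 day 14. The median cell held 6528 UMIs in sham, 8378 on day 3, 7403.5 on day 7 and 7190 on day 14. Lineages were set by marker genes, and 1208 cells fell in 1 of 7 families. The families are neutrophils (split into mature and immature), the B lineage (mostly B cell precursors), T or natural killer (NK) cells, a joint family of macrophages, monocytes and dendritic cells, plasmacytoid dendritic cells, basophils or mast cells, and myeloid progenitors. All markers of a lineage were higher in it than in other cells for 9 of the 11 lineages, and all but 1 in B cells (8 of 9) and plasmacytoid dendritic cells (7 of 8). Composition differed between pools: neutrophils made up 26.1% of sham cells and 49.9% of day 3 cells, and the B lineage 37.5% and 21.1%. Comparisons within a lineage are therefore given beside those over all cells. Free RNA is shared by all pools in a single library. The neutrophil gene S100a8 was seen in 97.2% of B lineage cells, and Isg15 in 2.48% of B lineage cells over all pools, at a median of 5757 UMIs. These shares are given for reading beside detection in other cells. Whether the Isg15 UMIs of B lineage cells are free RNA was not tested. Macrophages, monocytes and dendritic cells were deeper, with a median of 17199 UMIs on day 3, so the Isg15 share is no background level for them.

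Over all cells, the 34 members together were highest on day 3 and back near the sham level on day 14. They summed to 489, 999, 738 and 445 CPM (UMIs of the list per 1000000 UMIs of the cells) in sham, day 3, day 7 and day 14. The day 3 level was 2.04 times sham (95% interval 1.94 to 2.15), day 7 was 1.51 times (1.41 to 1.61) and day 14 was 0.910 times (0.837 to 0.989). The core moved most, from 45.4 CPM in sham to 280, 149 and 52.9 CPM, or 6.17 times sham on day 3 (5.25 to 7.30) and 3.28 times on day 7 (2.72 to 3.97). The core was grouped as genes low at rest, so its larger ratio to sham is partly set by the grouping. The regulators and sensors were at 209 and 333 CPM in sham and on day 3, a ratio of 1.59 (1.47 to 1.73). The effectors with resting expression were at 235 and 385 CPM, a ratio of 1.64 (1.52 to 1.78). On day 14 these effectors stood at 0.750 times sham (0.658 to 0.853). Singly, 22 of the 34 members, 4 of the 15 core genes among them, had at least 20 UMIs in sham and day 14 together. Of these 22, only Bst2 was lower by at least 1.5-fold on day 14, and only Xaf1 was higher. Of all genes with as many UMIs, 12.7% were lower and 5.93% higher. The other members could not be read singly on day 14. Plasmacytoid dendritic cells, in which Bst2 was high, numbered 4 in sham and 1 on day 14.

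**Figure D1:**
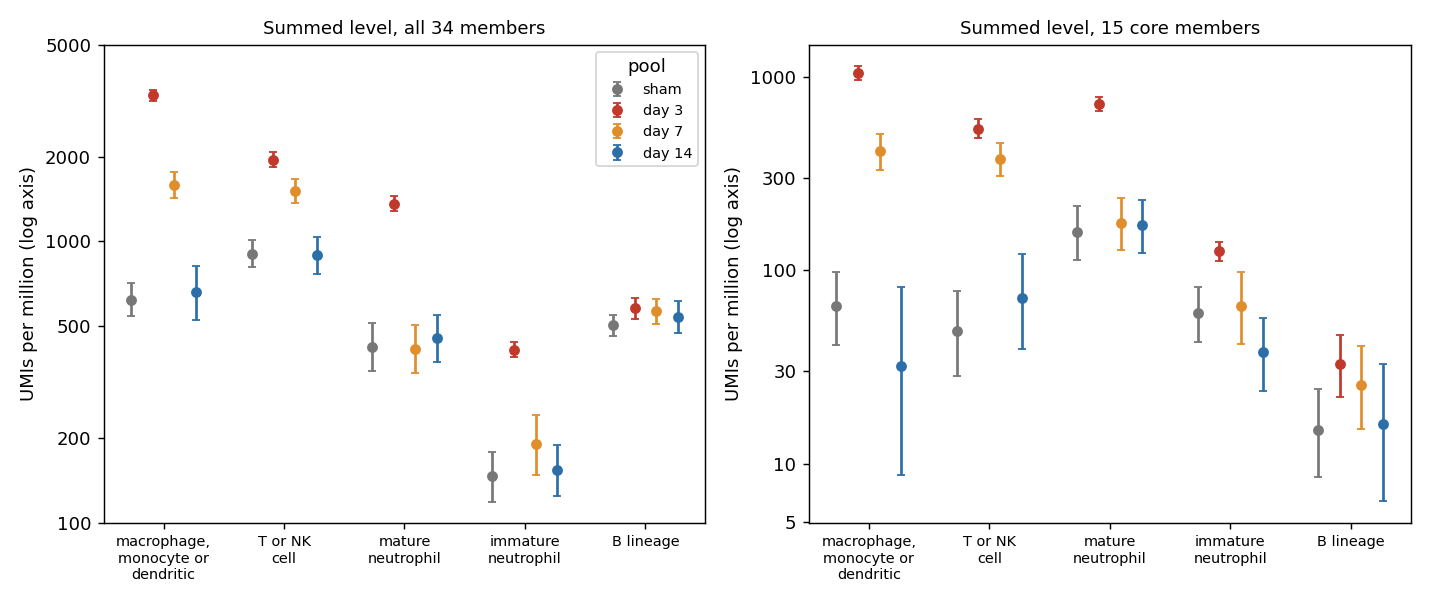
Summed level of all 34 members (left) and of the 15 core members (right) in CPM on log axes, by lineage and pool; points are pool sums and bars are exact Poisson 95% intervals. Day 3 is the highest pool in each lineage shown, and the B lineage moves least in the sum of all members.

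Macrophages, monocytes and dendritic cells, the phagocytes and antigen-presenting cells of the tissue, had the highest core ratio of the 5 lineages plotted, though its interval overlapped that of T or NK cells. Their core level was 65.2 CPM in 23 sham cells, 1049 CPM in 33 day 3 cells, 413 CPM in 14 day 7 cells and 32.2 CPM in 9 day 14 cells. Day 3 stood at 16.1 times sham (10.6 to 25.6) and day 7 at 6.32 times (3.97 to 10.5), while the day 14 ratio was 0.493 (0.124 to 1.44). The rise did not rest on 1 cell: the top cell held 17.2% of the day 3 core UMIs, and the ratio without the top cell of each pool was 17.5. Both parts of the family that could be split showed it. Macrophages went from 201 CPM (6 cells) to 1095 CPM (8 cells), and monocytes or dendritic cells from 45.5 CPM (17 cells) to 972 CPM (21 cells). All 34 members together went from 621 to 3303 CPM, 5.32 times sham (4.62 to 6.14).

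T or NK cells followed. Their core level was 48.7 CPM in 54 sham cells, 541 CPM in 65 day 3 cells, 378 CPM in 29 day 7 cells and 72.0 CPM in 20 day 14 cells. The day 3 ratio was 11.1 (6.83 to 19.3), and 10.3 without the top cell of each pool. T cells went from 38.5 to 688 CPM and NK cells from 59.7 to 440 CPM. On day 3 a single T cell of 28 held 70 core UMIs and a single NK cell of 37 held 49. Each of these 2 levels thus leaned in part on 1 cell. The day 7 value was mostly 1 cell: a T cell held 63.8% of the core UMIs of that pool, and the day 7 ratio of 7.76 became 3.50 without the top cell of each pool. For all 34 members the day 7 ratio of 1.67 became 1.17 in the same way, with an interval of 0.992 to 1.38.

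Mature neutrophils had the highest core level in sham of the 5 lineages plotted, 158 CPM in 48 sham cells, and reached 727 CPM in 131 day 3 cells. Days 7 and 14 stood at 175 and 171 CPM, close to sham. The day 3 ratio was 4.59 (3.31 to 6.53). A single cell held 44.7% of the day 3 core UMIs, with 234 of them among its 25898 UMIs against a lineage median of 5101. Its marker scores were 1.68 for mature neutrophils, 0.886 for immature neutrophils and 0.671 for monocytes. Whether this cell holds RNA of 2 cells was not tested. The sham pool also leaned on 1 cell, with 51.3% of its core UMIs, and without the top cell of each pool the core ratio was 5.32. The ratio of all 34 members moved with the settings. It was 3.23 (2.63 to 3.99), but 2.39 without the top cell of each pool, 1.69 without the 5% of barcodes with most UMIs, and 1.67 when lineages came from clusters instead of gates. The core ratio was not computed without those barcodes or with lineages from clusters.

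Immature neutrophils, which still make granule proteins, had a lower core ratio. They stood at 60.1 CPM in 39 sham cells, 125 CPM in 137 day 3 cells, 65.4 CPM on day 7 and 37.7 CPM on day 14. The day 3 ratio was 2.09 (1.49 to 2.99), and 1.70 without the top cell of each pool. That top cell held 37.7% of the day 3 core UMIs. It carried 65601 UMIs against a lineage median of 15535, and its macrophage marker score was 1.58 beside an immature neutrophil score of 3.01. Whether it holds RNA of 2 cells was not tested. The ratio of all 34 members was 2.82 (2.28 to 3.51), and 1.41 with lineages from clusters.

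B lineage cells had the lowest core level of the 5 lineages plotted in every pool. It was 14.9 CPM in 128 sham cells, 32.7 CPM in 116 day 3 cells, 25.6 CPM on day 7 and 16.0 CPM on day 14. The day 3 ratio was 2.19 (1.16 to 4.28) from 16 and 31 UMIs. All 34 members stood at 504 and 579 CPM, a ratio of 1.15 (1.02 to 1.30). Myeloid progenitors, the dividing source of neutrophils and monocytes, had 45.4 CPM in 7 sham cells and 43.8 CPM in 26 day 3 cells, a core ratio of 0.966 (0.456 to 2.28).

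Plasmacytoid dendritic cells, the lineage best known for making type I interferon, stood apart in another way. Their summed level of all 34 members was already 2440 CPM in 4 sham cells and 5060 CPM in 6 day 3 cells, above every other lineage in those pools. Bst2, the tethering protein tetherin, a surface marker of this lineage in mice, made up most of it, with 131 of 170 UMIs in sham and 344 of 395 on day 3. Core UMIs were almost absent, 1 in sham and 4 on day 3, all 4 in a single cell and all from Isg15. The other 2 members with most UMIs there over both pools were Trim30a (5 and 11 UMIs) and Ifi203 (14 and 1 UMIs).

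The number of cells that respond was counted separately from the sums. Each cell was thinned at random to 2000 UMIs, which left out 44 shallower cells (8 sham, 17 day 3, 8 day 7 and 11 day 14), and called responding with at least 3 core UMIs from at least 2 core genes. Responding cells were 1 of 333 in sham, 28 of 534 on day 3, 9 of 208 on day 7 and 2 of 166 on day 14. These are 0.300% (0.00760 to 1.66), 5.24% (3.51 to 7.49), 4.33% (1.997 to 8.05) and 1.20% (0.146 to 4.28). With all UMIs of each cell the counts were 11 of 341, 86 of 551, 25 of 216 and 5 of 177. Day 3 came first and day 7 second either way, while sham and day 14 changed places (3.23% and 2.82% with all UMIs). The limit cuts a range and does not mark a cell type: on day 3, 16 cells stood just under it with 2 core UMIs and 9 stood at it with 3, of which 7 had them from at least 2 genes and so responded. On day 3, 424 of 534 thinned cells had no core UMI at all, 79.4%, against 91.9% in sham.

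**Figure D2:**
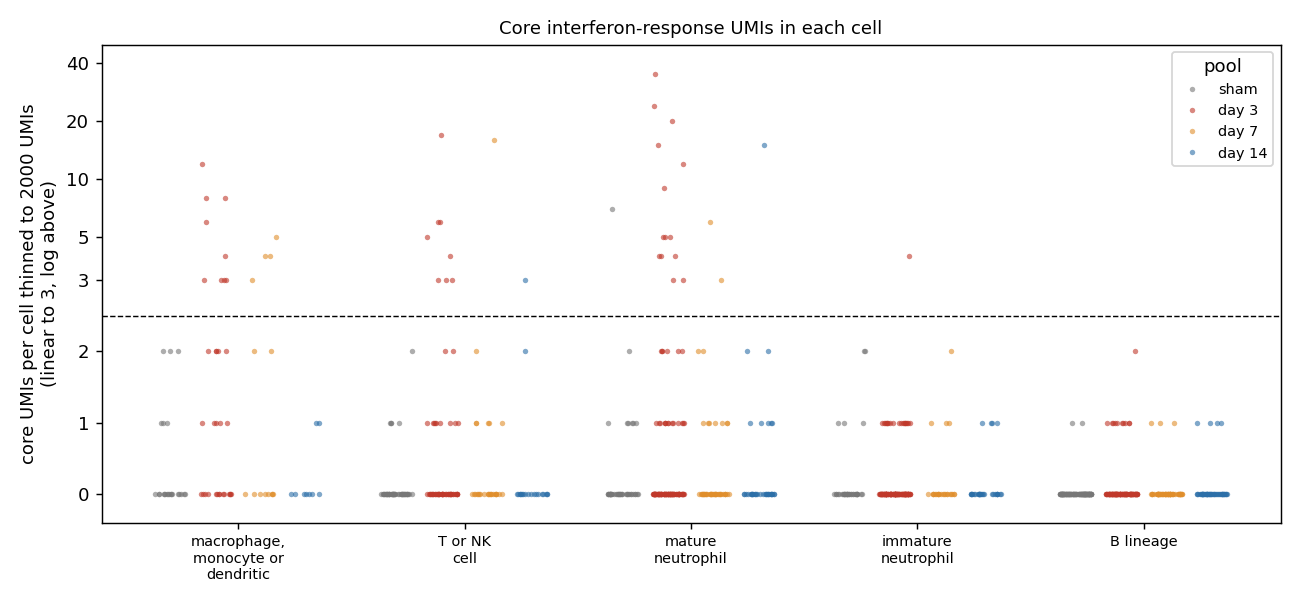
Core UMIs in each cell after thinning to 2000 UMIs (linear to 3 and log above), by lineage and pool, with 1 point per cell and small random offsets; the dashed line is the limit of 3 UMIs, and points above it respond if the UMIs come from at least 2 core genes. In most groups the majority of cells lie at 0, while 14 of the 33 macrophages, monocytes or dendritic cells of day 3 do, and the high values on day 3 are in macrophages, monocytes or dendritic cells, T or NK cells and mature neutrophils.

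By lineage, the day 3 responding cells were 12 mature neutrophils, 8 macrophages, monocytes or dendritic cells, 7 T or NK cells (4 T and 3 NK) and 1 immature neutrophil. As shares, 8 of 33 macrophages, monocytes or dendritic cells responded (24.2%, exact Clopper-Pearson interval 11.1 to 42.3), against 0 of 23 in sham (0 to 14.8). In T or NK cells it was 7 of 65 (10.8%, 4.44 to 20.9) against 0 of 54 (0 to 6.60). In mature neutrophils it was 12 of 124 (9.68%, 5.10 to 16.3) against 1 of 45 (2.22%, 0.0562 to 11.8). The sham and day 3 intervals overlap in each of these lineages. Immature neutrophils had 1 of 131 against 0 of 38. No B lineage cell responded in any pool, 0 of 115 on day 3 (0 to 3.16). None of 26 myeloid progenitors and none of 6 plasmacytoid dendritic cells on day 3 did after thinning. On day 7, 4 of 14 macrophages, monocytes or dendritic cells responded (28.6%, 8.39 to 58.1), a share no lower than on day 3 at this depth. With all UMIs it was lower, 7 of 14 against 24 of 33. The make-up of the family also differed. All 4 were macrophages, and 8 of the 14 cells were gated as macrophages, against 8 of the 33 on day 3. After thinning, T or NK cells had 1 of 28 and mature neutrophils 2 of 47 on day 7.

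Depth changes the share most in the large cells. Macrophages, monocytes and dendritic cells had a median of 17199 UMIs on day 3 and 14316 in sham, so thinning to 2000 drops most of their RNA. Thinned to 4000 UMIs, 14 of 33 responded on day 3 and 1 of 22 in sham. With all their UMIs, 24 of 33 did on day 3 (72.7%, 54.5 to 86.7), 7 of 14 on day 7 and 2 of 23 in sham. In T or NK cells the unthinned counts were 17 of 65 on day 3, 5 of 29 on day 7 and 0 of 54 in sham. In mature neutrophils they were 17 of 131 and 2 of 48, and in immature neutrophils 15 of 137 and 4 of 39. Myeloid progenitors, with a median of 28516 UMIs on day 3, had 5 of 26 on day 3 (19.2%), 2 of 15 on day 7 and 2 of 7 in sham (28.6%) with all their UMIs. On day 7, 4 of the 9 responding cells after thinning were macrophages, 2 were mature neutrophils, 1 was a T cell and 2 passed no lineage gate.

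**Figure D3:**
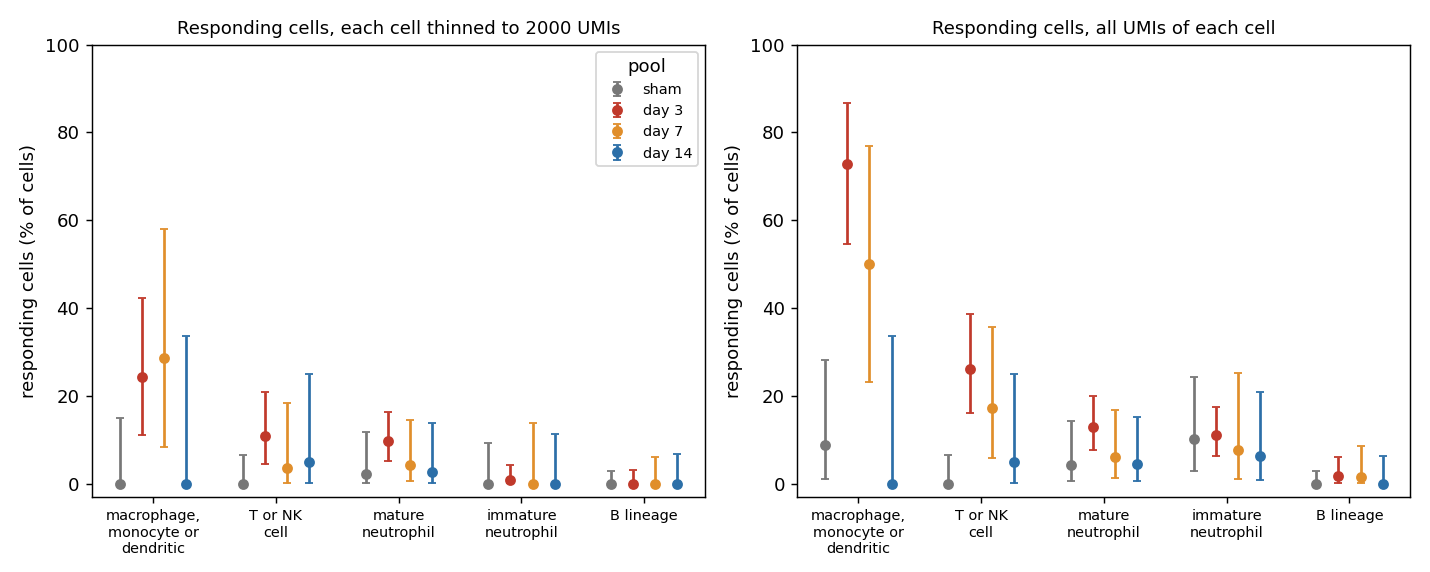
Share of responding cells in percent, by lineage and pool, after thinning each cell to 2000 UMIs (left) and with all its UMIs (right); points are shares and bars are exact Clopper-Pearson 95% intervals. On the right, 72.7% of day 3 macrophages, monocytes or dendritic cells respond, and the B lineage stays near 0 on both sides.

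The 28 responding cells of day 3 held 58.3% of all core UMIs, counted before thinning, in the 534 day 3 cells deep enough to thin. They carried a median of 22.5 core UMIs before thinning, from 5 to 234, from a median of 6 different core genes. The core genes seen are given by lineage, as a description of few cells, and were also counted before thinning. These responding cells differed in depth. Their median was 18320.5 UMIs in macrophages, monocytes or dendritic cells, 6798 in T or NK cells and 4962.5 in mature neutrophils. The part of depth in the number of core genes seen was not tested. In the 8 responding macrophages, monocytes or dendritic cells a median of 12 of the 15 core genes were seen, and Isg15, Ifi44 and Rtp4 were seen in all 8. Rsad2, or viperin, an antiviral radical enzyme, was seen in 1 of these 8. In the 7 T or NK cells the most often seen gene was Ifit1, in 6, and neither Oas1a nor Oas2 had a UMI. In the 12 mature neutrophils Isg15 was seen in all 12, Rtp4 in 8, Oasl2 in 7 and Rsad2 in 6, while Ifit2, Ifit3, Ifi44 and Mx1 were seen in 1 each. The median number of core genes in those neutrophils was 4.

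The 19 members outside the core did not define the responding cells, so their level in them is a further reading of the same cells, given as a description of a group chosen by its UMIs. Irf7, the factor that amplifies the response, stood at 584 CPM in the 28 responding day 3 cells, 43.4 CPM in the 506 other day 3 cells and 11.3 CPM in sham. Slfn5, of the Schlafen family, stood at 280, 19.1 and 4.24 CPM in the same order. Zbp1, a sensor of Z-form nucleic acid, stood at 227, 14.5 and 11.6 CPM. Xaf1, a proapoptotic factor, stood at 187, 10.1 and 5.09 CPM. Summed over lineages, all 19 were higher in responding than in other day 3 cells. The smallest ratio was that of Irf9, 3.63 (2.27 to 5.60), and the largest that of Xaf1, 18.6 (12.9 to 26.8). These ratios mix lineages: macrophages, monocytes or dendritic cells, whose summed level of the members was above that over all cells, were 8 of the 28 responding cells and 25 of the 506 others. Within that family the ratio of Xaf1 was 5.85 (3.26 to 10.8), and the intervals of 3 of the 19 members held 1: Irf9 at 1.47 (0.682 to 2.97), Ifih1 at 1.11 (0.318 to 3.17) and Herc6 at 2.26 (0.742 to 6.38). In T or NK cells Xaf1 was at 3.42 (1.11 to 8.99), 4 intervals held 1, and Dhx58 had no UMI in the 7 responding cells and 4 in the 58 others. In mature neutrophils 1 interval held 1, that of Parp9. However, Stat2, Zbp1, Ifi203, Ifi204, Xaf1 and Dhx58 were each seen in only 1 of the 12 responding neutrophils (8.33%). Their ratios there describe a single cell. Irf7 was higher within each of these lineages: 928 against 212 CPM in macrophages, monocytes or dendritic cells, 308 against 46.0 CPM in T or NK cells, and 401 against 48.9 CPM in mature neutrophils. The macrophages, monocytes or dendritic cells of day 3 that did not reach the limit also stood above sham. Their level was 212 against 39.7 CPM for Irf7, 330 against 105 CPM for Bst2 and 127 against 14.2 CPM for Slfn5. For Ifi204 it was 109 against 25.5 CPM and for Ddx58 38.6 against 2.84 CPM. Some of these values lean on few cells. In mature neutrophils Bst2 had 62 UMIs in the 12 responding cells and 3 in the other 112, and 61 UMIs of that gene came from 1 cell.

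**Figure D4:**
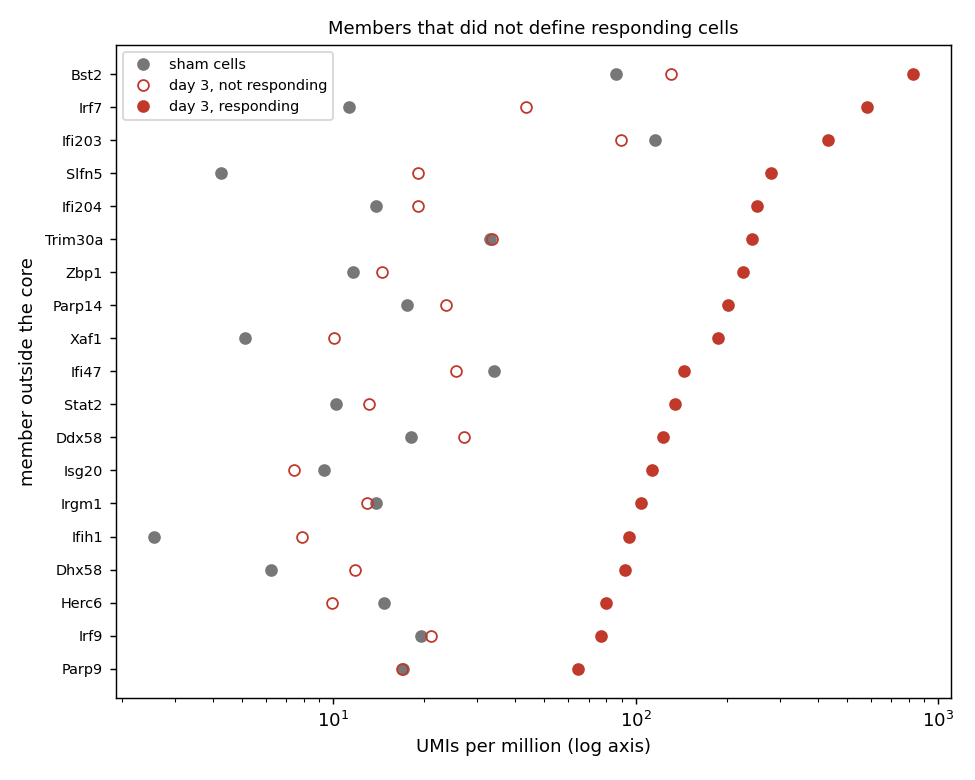
Level of the 19 members outside the core in CPM (log axis), in the 28 responding day 3 cells, the 506 other day 3 cells and the sham cells thinned alike; each point is a sum over cells. All 19 stand highest in the responding cells, and in the other day 3 cells 6 of the 19 are at least 1.5 times sham, with Irf7 at 43.4 against 11.3. The sums mix lineages, and within macrophages, monocytes or dendritic cells 16 of the 19 are at least 1.5 times sham in the other day 3 cells.

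Responding and other day 3 cells were compared in depth and hashtag signal. Median UMIs were 6718.5 and 8895. Median hashtag UMIs were 451 and 250. Within lineages the hashtag medians were 594 and 427 in macrophages, monocytes or dendritic cells, 688 and 438.5 in T or NK cells, and 205.5 and 209.5 in mature neutrophils. The part of the hashtag in these counts was not tested.

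Turning to single members, a member was counted as measured when the 2 pools compared held 20 UMIs of it or more, and as higher or lower at a ratio of at least 1.5 either way. A member that is rare in sham passes mainly through its day 3 UMIs, so these counts describe the list and support nothing by themselves. Over all cells all 34 were measured on day 3, and 26 were higher and 0 lower, where 7.21% of all measured genes were higher and 15.2% lower. The median log2 ratio of the 34 was 1.48, against -0.19 over all measured genes. All 15 core genes, 7 of 9 regulators and sensors and 4 of 10 resting effectors were among the 26. The other 8 lay between 0.918 (Ifi203 and Herc6) and 1.35 (Isg20).

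**Figure D5:**
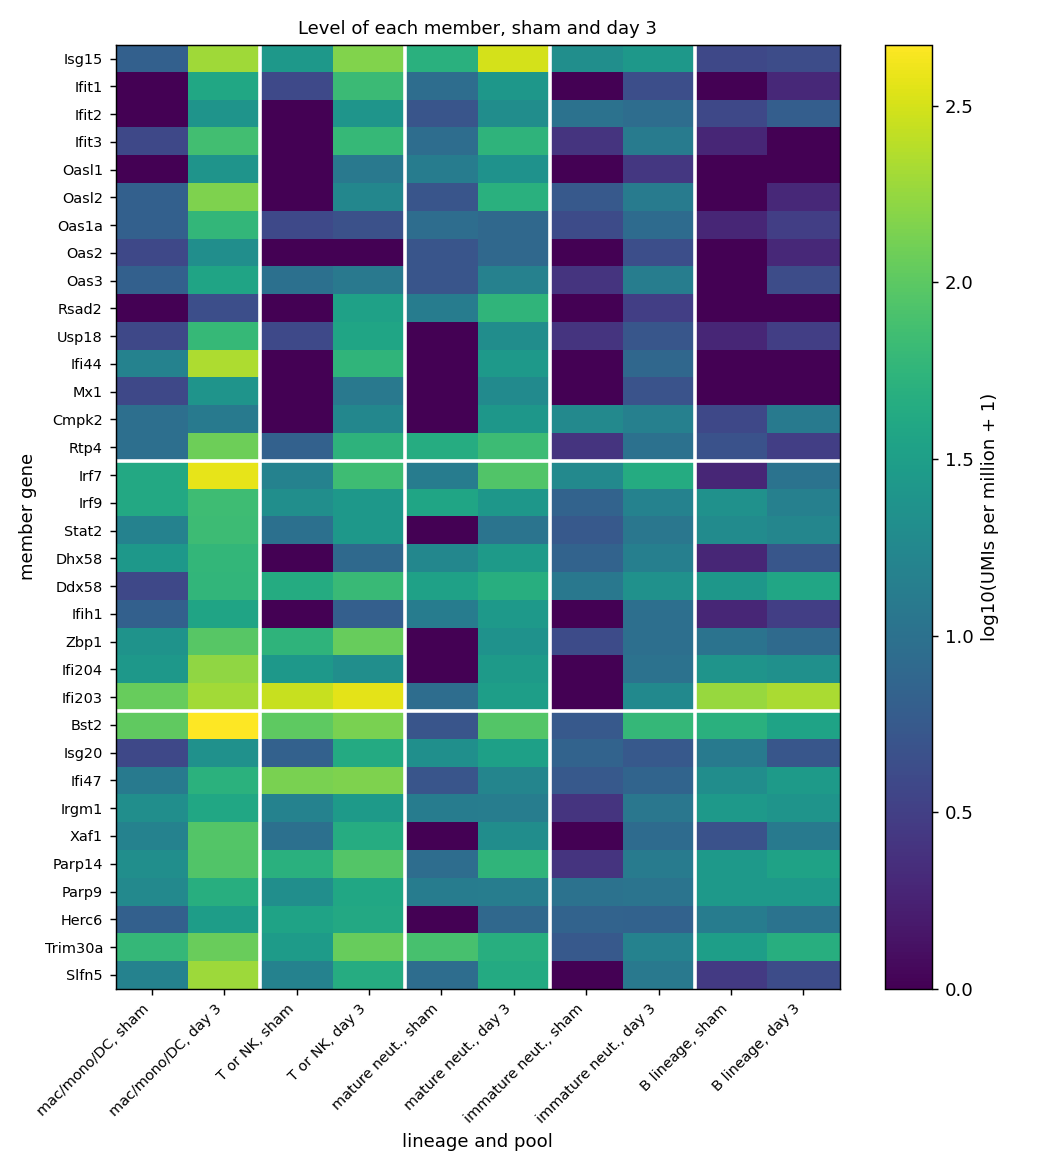
Level of each member in sham and on day 3 by lineage, as log10(CPM + 1), with core members on top, regulators and sensors in the middle and resting effectors below. The core rows are dark in most sham columns, and most of them brighten on day 3 in macrophages, monocytes or dendritic cells, T or NK cells and mature neutrophils. They change less in immature neutrophils and the B lineage (summed core ratios 2.09 and 2.19), while Ifi203 is bright in T or NK cells and B lineage cells in both pools.

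Isg15, the ubiquitin-like modifier, was the most abundant core member, with 12.4, 77.8, 33.6 and 16.6 CPM in sham, day 3, day 7 and day 14 over all cells. By lineage, its sham and day 3 levels were 5.67 and 196 CPM in macrophages, monocytes or dendritic cells, 25.8 and 146 CPM in T or NK cells, 48.7 and 318 CPM in mature neutrophils, 20.0 and 25.8 CPM in immature neutrophils, and 2.80 and 3.16 CPM in the B lineage. It was seen in 1 of 23 and 21 of 33 macrophages, monocytes or dendritic cells. In the B lineage it was seen in 3 of 128 and 3 of 116 cells. Mature neutrophils had the highest day 3 level, but 72 of their 229 UMIs came from 1 cell. Immature neutrophils did not differ beyond counting error (ratio 1.29, 0.699 to 2.55).

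Ifit1, Ifit2 and Ifit3 encode proteins that bind viral or unmodified RNA. Ifit3 had 5, 144, 27 and 4 UMIs in the 4 pools, 15.3 times sham on day 3 (6.40 to 47.7) by CPM, in 28 of 551 cells. In macrophages, monocytes or dendritic cells Ifit3 went from 1 to 43 UMIs, in 11 of 33 cells on day 3. In T or NK cells it went from 0 to 33 UMIs in 10 of 65 cells, at least 7.00-fold higher against a floor of 3 UMIs. In mature neutrophils all 39 UMIs of Ifit3 on day 3 came from 1 cell. Ifit1 was spread over somewhat more cells, with 23 UMIs in 7 macrophages, monocytes or dendritic cells, 36 in 11 T or NK cells and 18 in 3 mature neutrophils. Ifit2 moved less over all cells, 2.25 times sham (1.31 to 4.07).

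The Oas genes make the messenger that activates RNase L, and the Oasl genes are their relatives. Oasl2 had 8, 164, 29 and 4 UMIs, 10.9 times sham on day 3 (5.39 to 25.6). More of these UMIs were in macrophages, monocytes or dendritic cells than in any other lineage, with 86 in 20 of 33 cells, followed by 35 in 8 mature neutrophils, 28 in 5 immature neutrophils and 9 in 5 T or NK cells. Oas3 was 5.61 times sham (2.59 to 14.4) and Oas1a 3.05 times (1.64 to 6.19). Oas2 and Oasl1 were rarer, with 27 and 40 UMIs on day 3.

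Ifi44, an interferon-induced GTP-binding protein, had 208 UMIs on day 3 and 8 in sham, 13.8 times (6.87 to 32.4). Of these, 132 were in 20 of 33 macrophages, monocytes or dendritic cells, against 5 in 2 of 23 in sham. Rsad2 went the other way between lineages. It had 40 UMIs in 12 mature neutrophils and 18 in 5 T or NK cells on day 3, but 2 in macrophages, monocytes or dendritic cells. Cmpk2, the neighbouring mitochondrial nucleotide kinase, had 18 UMIs in 8 mature neutrophils, 7 in macrophages, monocytes or dendritic cells and 32 in 26 immature neutrophils, where its level was already 16.9 CPM in sham and 13.5 CPM on day 3. Usp18, which removes Isg15 and restrains the receptor, had 36 UMIs in 15 macrophages, monocytes or dendritic cells, 20 in 9 T or NK cells and 14 in 3 mature neutrophils, against 1, 1 and 0 in sham. Mx1, a GTPase that blocks viruses, had 44 UMIs in 15 cells on day 3 and 2 in sham. Rtp4, a receptor-transporting protein, was present at rest in mature neutrophils (44.7 CPM, 7 of its 11 UMIs in 1 cell) and stood at 66.7 CPM there on day 3 (ratio 1.49, 0.765 to 3.19). In macrophages, monocytes or dendritic cells it went from 8.51 to 119 CPM and in T or NK cells from 5.73 to 52.9 CPM.

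Among the regulators, Irf7 had 11.3, 69.6, 25.3 and 12.3 CPM in the 4 pools, 6.16 times sham on day 3 (4.46 to 8.74). Among the lineages with over 20 cells in both pools it was highest in macrophages, monocytes or dendritic cells, at 39.7 and 370 CPM (9.31 times, 5.43 to 17.3). The 4 sham plasmacytoid dendritic cells stood at 43.1 CPM, all in 1 cell, and the 6 of day 3 at 102 CPM. It also had more UMIs in immature neutrophils, at 16.9 and 42.6 CPM (2.52 times, 1.35 to 5.20), from 11 and 101 UMIs. An Irf7 UMI was seen in 10 of 39 immature neutrophils in sham (25.6%) and 39 of 137 on day 3 (28.5%). Of the 101 UMIs, 21 were in the day 3 cell of 65601 UMIs described above and 22 in another. Without the former the ratio was 2.05 (1.09 to 4.27). In the B lineage it went from 1 of 128 to 9 of 116 cells with a UMI. Irf9 and Stat2, both of the ISGF3 complex, moved less: 1.20 times (0.904 to 1.62) and 1.82 times (1.25 to 2.70). Of the RNA sensors, Ifih1 (MDA5) stood at 4.77 times sham (2.39 to 10.8), Dhx58 (LGP2) at 2.53 times (1.59 to 4.21) and Ddx58 (RIG-I) at 1.76 times (1.32 to 2.36). Ifi204, of the p200 family, was 2.20 times sham over all cells and 6.56 times (3.32 to 14.8) in macrophages, monocytes or dendritic cells. Its relative Ifi203 was the most abundant of this group in lymphocytes and over all cells did not differ from sham beyond counting error (0.918, 0.812 to 1.04). It stood at 281 and 365 CPM in T or NK cells and at 182 and 215 CPM in the B lineage.

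Among the resting effectors, Slfn5 moved most, with 4.23, 31.9, 20.2 and 5.34 CPM, 7.53 times sham on day 3 (4.46 to 13.7). In macrophages, monocytes or dendritic cells it was seen in 27 of 33 cells, at 189 CPM against 14.2 in sham. Xaf1 was 3.71 times sham on day 3 (2.26 to 6.47). Bst2 had 86.1, 164, 93.7 and 35.2 CPM over all cells. In macrophages, monocytes or dendritic cells it went from 105 to 470 CPM (4.48 times, 3.17 to 6.50). In T or NK cells it stood at 100 and 135 CPM (1.35, 0.889 to 2.07). Trim30a, a ubiquitin ligase, was 3.95 times sham in T or NK cells (2.01 to 8.63) but 0.595 times in mature neutrophils (0.328 to 1.11). Ifi47 and Irgm1 are GTPases that also answer to interferon gamma. Ifi47 stood at 135 and 144 CPM in T or NK cells, its highest lineage among those with over 20 cells. Parp14 stood at 8.12 and 55.6 CPM in mature neutrophils, seen in 2 of 48 and 23 of 131 cells. The neutrophil rise of Parp14 was spread over more cells than that of the Ifit genes.

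Counted by lineage on day 3, 27 members were measured in macrophages, monocytes or dendritic cells and all 27 were higher, where 16.7% of all measured genes were higher and 18.4% lower. The remaining 7, Ifit2, Oasl1, Oas2, Rsad2, Mx1, Isg20 and Cmpk2, had under 20 UMIs. In T or NK cells 15 of 22 were higher and 0 lower (13.5% and 10.7% of all measured genes). In mature neutrophils 14 of 18 were higher and 1 lower, Trim30a (16.1% and 10.0%). Without the top cell of each member in each pool 10 were still measured there and 8 were higher. In immature neutrophils 19 of 23 were higher and 0 lower (16.3% and 9.01%), and 9 of 12 without the top cell of each member. In B cell precursors 12 were measured, 0 higher and 1 lower, Irgm1 (9.42% and 7.20%).

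By day 7 the members had moved part of the way back over all cells. Of 30 measured, 20 were higher and 0 lower, with 7.87% and 7.03% of all measured genes higher and lower. Day 14 had 1 higher, Xaf1, and 1 lower, Bst2, of 22 measured, with 5.93% and 12.7%. Bst2 stood at 0.409 times sham (0.309 to 0.536) on day 14, with 4 plasmacytoid dendritic cells in sham, which held 131 of its 305 UMIs there, and 1 on day 14. Mature neutrophils had 3 members measured on day 7, 0 higher and 1 lower, Trim30a, at 0.159 times sham (10.8% and 12.2%). On day 14 they had 4 measured, 1 higher, Isg15, with 17 of its 19 UMIs in 1 cell, and 0 lower (14.0% and 14.1%). Immature neutrophils had 2 measured on day 14, Ddx58 higher and Isg15 lower (17.1% and 10.6%). B cell precursors had 12 measured on day 7, 3 higher (Irf9, Ifi47 and Herc6) and 1 lower, Ddx58 (10.9% and 12.7%). On day 14 they had 11 measured, 1 higher, Herc6, and 1 lower, Irgm1 (10.2% and 11.8%). With so few members measured, nothing about the members is read from the counts in B cell precursors or in the neutrophils of days 7 and 14.

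The other genes of the pathway were counted by the same limit. Over all cells on day 3, 7.21% of all measured genes were higher and 15.2% lower. With so few genes per list, the counts below are a description. Of 20 type I and III interferon genes searched, only Ifnk had a UMI, 19 in all and no more than 1 in any cell, with 6, 7, 4 and 2 UMIs in the 4 pools. No UMI of Ifnb1 or of an Ifna gene was found in the 1285 cells, at this depth. Interferon gamma (Ifng) stood at 26.8, 29.0, 18.6 and 13.9 CPM. Of the 15 receptor and signalling genes, all measured over all cells, 0 were higher on day 3 and 1 was lower, Irf1. Ifnar1 stood at 48.5, 46.7, 47.4 and 40.6 CPM. In macrophages, monocytes or dendritic cells 14 were measured, with 4 higher on day 3, among them Ifnar2, Irf1 and Irf3. Jak2 and Irf8 were the 2 lower. There 16.7% of all measured genes were higher and 18.4% lower. Of 13 nucleic acid sensing genes 10 were measured over all cells, 2 were higher on day 3 (Tlr7 and Tlr13) and 1 lower (Mb21d1). Of 16 genes that lean towards interferon gamma 9 were measured, with 3 higher (Igtp, Irgm2 and Tgtp2) and 0 lower. Cxcl10, a chemokine of both pathways, stood at 9.88 and 10.0 CPM, from 35 UMIs in 10 sham cells and 67 UMIs in 7 day 3 cells. Single cells held 22 of the sham UMIs and 37 of those of day 3. Of the 67, 60 were in 2 of the 28 responding cells, a T or NK cell and a mature neutrophil, and 7 were in 5 other cells.

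Over the 20 sums of lineage and pool with at least 20 cells, and 10173 genes, the 5 genes whose CPM was most like that of Isg15 were Hgsnat, Rab8b, Ctsd, Nfil3 and Chmp4b (Spearman rho 0.895 to 0.870). None is a member. The points share 1 library and mix lineages with pools, so this is a description. Among the other 31 members with enough UMIs, 5 ranked in the first 100. They were Rsad2 (rank 22), Oasl2 (27), Rtp4 (29), Irf7 (51, rho 0.770) and Oas3 (67).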

How the data were processed

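Single cells of a 10x droplet library and their hashtags were analysed in 1556 barcodes, present alike in both matrices. The deposited values are raw UMI counts per gene and barcode and per hashtag and barcode, made with Cell Ranger 3.1.0 per the file headers, and the build mm10 is named in the submitters' processing notes. The labels give kit versions that conflict. A barcode was assigned to a pool with at least 10 UMIs of its top hashtag and at least 80% of its hashtag UMIs from it, which also drops barcodes with mixed hashtags. No doublet caller was run, so pairs of cells from 1 pool may remain. Cells had at least 200 genes and at most 10% mitochondrial UMIs. Of 1556 barcodes, 1359 had a pool and 1285 also passed these limits. A lineage needed at least 3 of its markers and a lead of 0.2 in mean log-scaled marker level over lineages of other families. No member was a marker. The families, the lead, and the use of macrophages, monocytes and dendritic cells as 1 family were set after the data were seen. The members and all gene lists were chosen with earlier results of these data known.

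Levels are list UMIs divided by all UMIs of a lineage and pool. Intervals are exact Poisson for levels, conditional Poisson for ratios and Clopper-Pearson for shares. A level of 0 was set to a floor of 3 UMIs per pool for a ratio. Members were described singly with at least 20 UMIs in a lineage of at least 30 cells in sham and in another pool, or as 1 of the 3 with most UMIs in a smaller lineage. Macrophages, monocytes and dendritic cells had 23 sham cells and were admitted after the data were seen. No test was run, since each condition is 1 pool. Python 3.11.15 with numpy 2.4.6, scipy 1.17.1, pandas 2.3.3, scanpy 1.11.5 (clusters as an alternative to gates) and matplotlib 3.10.9 was used. The ratios and the thinning were tested on simulated data. Alternatives covered the hashtag rule, the cell limits, the gates, the top cell, single genes, depth and the limits for a responding cell or a measured member. Values of 1 signalling gene are not reported here.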

Additional observations from a re-analysis of the deposited data

Results flagged for a closer look

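Barcodes that no pool could claim also held responding cells. Of 92 such barcodes past the cell filters, 48 had under 10 UMIs of their top hashtag and 44 had a top hashtag under 80% of their hashtag UMIs. After thinning, 2 of the 43 deep enough responded, 4.65% (0.568 to 15.8), where the sham pool had 0.300% (0.00760 to 1.66), so the intervals overlap. The day 3 pool had 5.24% (3.51 to 7.49). Both responding barcodes had mixed hashtags, with a top hashtag under 80% and the day 3 hashtag first or second. Whether they hold 2 cells was not tested. The 34 members stood at 1147 CPM in these barcodes and at 489 CPM in sham.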

How the results depend on the processing

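No paired analysis was possible because each condition is 1 pool. Of 276 alternative values, 217 stayed within the counting interval (for counts of members, within 1.5 times) and 59 moved further. No ratio past 1.5-fold turned its direction. One gate, with the lead required over related lists too, was added after the data were seen and moved no value further. For the ratio of all 34 members over all cells (main 2.04 on day 3), the value was 2.16 with at most 5% mitochondrial UMIs, 1.93 without Isg15, 1.85 without the 5% of barcodes with most UMIs, 1.78 as a mean over cells and 6.17 with the core only. On day 7 it was 1.62 without those barcodes and 3.28 with the core. On day 14 it moved from 0.910, under sham, to 1.00 as a mean over cells and to 1.16 with the core, with an interval that holds 1, so its direction is not settled. For macrophages, monocytes or dendritic cells on day 3 it was 6.21 with clusters, 4.06 as a mean over cells and 16.1 with the core. For T or NK cells it was 2.76 without the deepest 5% and 11.1 with the core. For mature neutrophils (main 3.23) it was 1.67 with clusters, 2.39 without the top cell, 1.69 without the deepest 5%, 2.21 as a mean and 4.59 with the core. For immature neutrophils (main 2.82) the same settings gave 1.41, 2.22, 1.64, 1.97 and 2.09. The B lineage core ratio was 2.19.

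The share of responding cells followed depth and limit. In sham it was 0% without the top cell, 3.23% without thinning and 2.10% with all 34 members. On day 3 (main 5.24%) it was 2.21% at 1000 UMIs, 8.16% at 4000, 15.6% without thinning, 2.43% with at least 5 UMIs of 3 members and 9.18% with all 34 members. On day 7 it was 1.87% at 1000 UMIs, 11.6% without thinning and 1.92% with 5 UMIs of 3 members. In macrophages, monocytes or dendritic cells on day 3 these settings gave 9.09% at 1000 UMIs, 42.4% at 4000, 72.7% without thinning, 9.09% with 5 UMIs of 3 members and 48.5% with all 34. T or NK cells had 3.08% at 1000 UMIs and 26.2% without thinning. Mature neutrophils had 4.76% at 1000 UMIs and 4.84% with 5 UMIs of 3 members. The B lineage had 3.48% with all 34 members.

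Counts of higher members on day 3 fell with a minimum of 40 UMIs to 17 in macrophages, monocytes or dendritic cells (main 27), 5 in T or NK cells (main 15), 6 in mature neutrophils (main 14) and 4 in immature neutrophils (main 19), since fewer members are measured. Without the top cell of each member they were 8 and 9 in mature and immature neutrophils, and at 10 UMIs 23 in mature neutrophils. The cause of the other shifts was not tested. With 1 pool per condition no spread between mice is known, and the smallest groups (9 macrophages, monocytes or dendritic cells on day 14) limit what could be seen.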
